A study of Mus musculus with 165 samples.

Results

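The 8 genes described here encode surface receptors of myeloid cells from families that pair inhibitory with activating members: *Pirb*, *Pira2*, *Lilrb4a*, *Gm5150*, *Sirpa*, *Clec4a2*, *Clec12a* and *Cd33*. They were taken by symbol from a table of 36255 genes. All 8 were found, and all 8 reached a normalized count of 5 in at least 1 library, the filter for testing. *Pira2* and *Gm5150*, which had no read in undifferentiated cells, passed that filter through later libraries only. They were selected on measured values, because *Pirb*, *Gm5150* and *Clec4a2* are among the largest rises between undifferentiated cells and 168h. The values of undifferentiated cells and 168h are therefore given as a description, with no test, and GCSF 0h enters a test only as the start of the step to 1h.

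Receptors of this kind come in families whose extracellular parts are alike and whose signals are opposed. An inhibitory member carries immunoreceptor tyrosine-based inhibitory motifs (ITIMs) in its cytoplasmic tail, and these recruit phosphatases such as those encoded by *Ptpn6* and *Inpp5d*. An activating member has a short tail and signals through an adaptor with an activating motif (ITAM), such as those encoded by *Tyrobp* and *Fcer1g*, which pass the signal to the kinase Syk. On neutrophils and macrophages such pairs set how strongly the cell reacts to integrin, Fc receptor and cytokine signals.

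The cells were PUER cells, a single myeloid progenitor line from mice without PU.1 (*Spi1*), with a fusion of PU.1 to the ligand-binding part of the estrogen receptor. Adding 4-hydroxy-tamoxifen (OHT) activates the fusion, so that cells in IL3 differentiate toward macrophages and cells in GCSF toward neutrophils. Every group shares the missing endogenous PU.1 and the fusion, so no group has normal PU.1 (the source of the line is bone marrow in the labels and both bone marrow and fetal liver in the study), and all groups come from 1 line. RNA-Seq covered 3 libraries of undifferentiated cells kept in IL3 at 5 ng/ml, 3 libraries of GCSF 0h (cells moved to GCSF at 10 ng/ml for 48 h, without OHT), and the hours after OHT, sampled 27 times between 1h and 168h. GCSF-OHT comprised 78 libraries with OHT at 100 nM after the 48 h in GCSF, and IL3-OHT 81 libraries with OHT at 200 nM and no such interval. A difference between GCSF-OHT and IL3-OHT can therefore come from the cytokine, the 48 h in GCSF or the OHT dose, which cannot be told apart. Each time point was a plate of its own, with OHT renewed at 40h, 88h and 136h. Time points later than 24h were harvested with trypsin. Early and late time points therefore also differ in handling, which cannot be told apart from time. The 3 replicates of a group were separate wells (2 for GCSF-OHT 96h, 112h and 152h). Reads are from bulk cells, so that fewer cells expressing a gene and less RNA per cell cannot be told apart.

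Libraries held 14600246 to 33147945 reads on genes (median 21960878), and 3 reads, taken as the floor of detection, were worth a normalized count of 1.96 to 5.51. Normalized counts are reads divided by a size factor that puts libraries on 1 depth, so they compare libraries for 1 gene and not genes with each other. The summed level of 10 neutrophil markers, all detected in every group, was 257879 to 264664 in undifferentiated cells, 231740 to 367863 in IL3-OHT from 80h to 168h and 594195 to 805710 in GCSF-OHT over the same hours. Of 12 monocyte and macrophage markers, 9 were detected in IL3-OHT from 80h, and *C1qa*, *C1qb* and *C1qc* were never above 3 reads. The sum of the 12 was 22586 to 25650 in undifferentiated cells. From 80h this sum was 18364 to 26793 in IL3-OHT and 13578 to 17265 in GCSF-OHT. Late IL3-OHT thus overlapped undifferentiated cells, and the macrophage label is that of the study and does not rest on this sum. The sum of 8 progenitor markers was 12854 to 14157 in undifferentiated cells. From 80h to 168h it was 4924 to 7504 in IL3-OHT and 6994 to 10690 in GCSF-OHT. Markers of the remaining cell types were low in every library. Their sums were at most 21.5 for B and T lymphocytes, 39.9 for eosinophils, 132 for erythroid cells, 151 for stroma, 294 for dendritic cells and 328 for mast cells and basophils. The part of these shifts in the values below was not tested. The authors excluded the IL3-OHT libraries of 96h and 144h, and these enter only the comparison around the OHT renewals. The 120h libraries of both cytokines carry another library name prefix than the rest, the meaning of which is not given in the sources used here.

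The members lie on 5 chromosomes. In GRCm38, *Pirb* (chr7:3711409-3720391) and *Pira2* (chr7:3836812-3845051) are both in the PIR cluster on the minus strand of chromosome 7, on which *Cd33* also lies (chr7:43524216-43544428). *Lilrb4a* (chr10:51490956-51496611) adjoins *Lilr4b*. *Gm5150* (chr3:15946870-16006437) and *Sirpa* (chr2:129592835-129632228) belong to the SIRP family. *Clec4a2* (chr6:123106428-123143999) and *Clec12a* (chr6:129342691-129365303) are C-type lectin genes on chromosome 6. Reads of near copies can be split between genes by the quantification. Of the distinct 31-base stretches of its transcripts, 96.7% in *Pira2*, 55.7% in *Lilrb4a*, 43.8% in *Pirb* and 10.3% in *Clec4a2* also occur in other genes, against at most 1.10% in the other 4 members. *Pira2* shares 88.1% of its stretches with *Gm15922* alone, so its level is uncertain throughout.

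Promoter sequences of 4 members are shown because PU.1 is the factor that OHT activates and because these genes start from few reads or none. *Clec4a2* also started from few reads or none and held no match to the letters searched, as did *Gm5150*, but its sequence is not shown. They were read from RefSeq (GRCm38.p6), each is given 5′ to 3′ on the strand of its gene and ends at or before the transcription start, and capitals mark the letters GAGGAA, the core of the PU.1 motif, or their reverse complement TTCCTC. Stretches that lie in exons of the GRCm38 annotation were left out, which leaves chr7:3720392-3720632 (minus strand) for *Pirb*, chr7:3845052-3845301 (minus) for *Pira2* and chr3:16006438-16006582 (minus) for *Gm5150*. For *Clec12a* all 250 bases of the window lie in an exon of the gene, whose annotated transcript begins further upstream than the RefSeq start, and only the 30 bases around its matches are shown (chr6:129350178-129350207, plus).
Pirb: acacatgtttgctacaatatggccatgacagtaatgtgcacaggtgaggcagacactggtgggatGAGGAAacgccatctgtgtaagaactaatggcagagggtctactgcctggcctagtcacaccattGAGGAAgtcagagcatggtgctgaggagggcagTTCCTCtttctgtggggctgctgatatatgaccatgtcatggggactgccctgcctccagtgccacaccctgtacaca
Pira2: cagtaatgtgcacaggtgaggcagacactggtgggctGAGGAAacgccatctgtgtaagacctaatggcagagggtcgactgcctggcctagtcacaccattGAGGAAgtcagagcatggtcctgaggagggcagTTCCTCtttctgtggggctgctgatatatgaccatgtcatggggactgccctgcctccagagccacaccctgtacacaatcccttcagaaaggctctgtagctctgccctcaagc
Gm5150: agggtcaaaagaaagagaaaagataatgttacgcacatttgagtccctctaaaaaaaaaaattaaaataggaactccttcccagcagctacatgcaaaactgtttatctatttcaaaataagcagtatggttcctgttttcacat
Clec12a: aatatGAGGAAgaaaagtgTTCCTCtttca

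Over 250 bases before the start, GAGGAA was found on either strand 3 times in *Pirb*, 3 times in *Pira2*, 2 times in *Clec12a*, 1 time in *Cd33* and not in *Gm5150* or *Clec4a2*. Of 32851 promoters in the same table, 23.3% held at least 1 match, and 10.6% held the longer GAGGAAG, which contains the shorter motif. *Pirb* and *Pira2* were identical at 217 of 222 aligned bases of this window (97.7%), and their 3 matches lie at the same spacing. *Gm5150* was identical to *Sirpb1a* at 88.1% of 236 aligned bases. A match is a description of letters and not a binding site, and *Sirpa* and *Lilrb4a* have no entry in the table. Other forms of the PU.1 motif were not searched, so a promoter without a match can still hold such a form.

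*Pirb*, an inhibitory receptor with several ITIMs that binds MHC class I, was low before OHT, lowest in undifferentiated cells, and far higher at 168h in both cytokines. Its normalized counts were 24.9, 8.18 and 8.27 in the 3 undifferentiated libraries, 40.7, 49.6 and 44.7 at GCSF 0h, 9833, 9891 and 10756 in GCSF-OHT 168h and 1918, 2118 and 1872 in IL3-OHT 168h. No library of either endpoint came near those of the start, and the GCSF endpoint lay above the IL3 endpoint in every library. Against undifferentiated cells this was 738-fold in GCSF-OHT (95% counting interval 556 to 1123) and 143-fold in IL3-OHT (107 to 217), which covers counting error only. *Pirb* ranked 2nd of the 17414 genes tested by endpoint log2 fold change in GCSF-OHT and 10th in IL3-OHT.

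*Pira2*, an activating receptor that pairs with the FcR gamma chain encoded by *Fcer1g*, had no read in any undifferentiated or GCSF 0h library. It reached 272.5, 326.0 and 365.4 in GCSF-OHT 168h and 133.01, 176.6 and 115.9 in IL3-OHT 168h. Against a floor of 3 reads per library this is at least 91.5-fold higher in GCSF-OHT and at least 40.4-fold higher in IL3-OHT. *Pira2* thus went from undetected to detected in every library of both endpoints, and the groups did not overlap.

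*Gm5150*, a predicted gene next to the *Sirpb1* genes, was at 0 in all 3 undifferentiated libraries and at 3.70, 1.77 and 2.80 at GCSF 0h, that is at or about the floor. It stood at 862.8, 1011 and 1162 in GCSF-OHT 168h, where it ranked 1st of 17414 genes, and at 148.5, 161.0 and 148.9 in IL3-OHT 168h. The lower bound of the fold was 288 in GCSF-OHT and 43.5 in IL3-OHT. *Sirpa*, the inhibitory receptor for CD47, was well expressed from the start, with 4674, 4652 and 4655 in undifferentiated cells. Its endpoint values were 10897, 10663 and 11222 in GCSF-OHT and 5753, 6276 and 5979 in IL3-OHT, which is 2.34-fold and 1.29-fold, with no overlap with the start in either cytokine.

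*Clec4a2*, an inhibitory C-type lectin also known as DCIR, had 6.54, 2.05 and 0 in undifferentiated cells and no read at GCSF 0h. It ended at 1899, 2071 and 2143 in GCSF-OHT and 600.9, 907.6 and 720.1 in IL3-OHT. *Clec12a*, an inhibitory lectin that binds uric acid crystals, rested on 3 reads in all undifferentiated libraries together, and ended at 781.1, 783.7 and 811.1 in GCSF-OHT and 268.4, 301.0 and 229.0 in IL3-OHT. The endpoint fold in GCSF-OHT was 712 for *Clec4a2* (366 to 1877) and 647 for *Clec12a* (234 to 3323), so the start is known only roughly. In IL3-OHT they were 260-fold (135.3 to 695) and 217-fold (78.3 to 1117).

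The last members were not low at the start. *Lilrb4a*, an inhibitory receptor of the gp49 pair, had 16793, 16972 and 14867 in undifferentiated cells, 6364, 6041 and 5268 at GCSF 0h, 19092, 19341 and 18431 in GCSF-OHT 168h and 14734, 18279 and 16182 in IL3-OHT 168h. It was thus lower after 48 h of GCSF than in undifferentiated cells and lay above both at the GCSF endpoint, while undifferentiated and IL3-OHT 168h libraries overlapped. *Cd33*, a Siglec that binds sialic acids, went the other way. It had 3023, 3175 and 3382 in undifferentiated cells, 751.3, 575.5 and 511.7 at GCSF 0h, 136.7, 156.5 and 174.5 in GCSF-OHT 168h and 943.0, 1109.8 and 1043 in IL3-OHT 168h. Its endpoint ratio to undifferentiated cells was 0.0488 in GCSF-OHT and 0.323 in IL3-OHT, and it ranked 17286th and 16442nd of 17414 genes, near the end of the list in both cytokines.

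**Figure D1:**
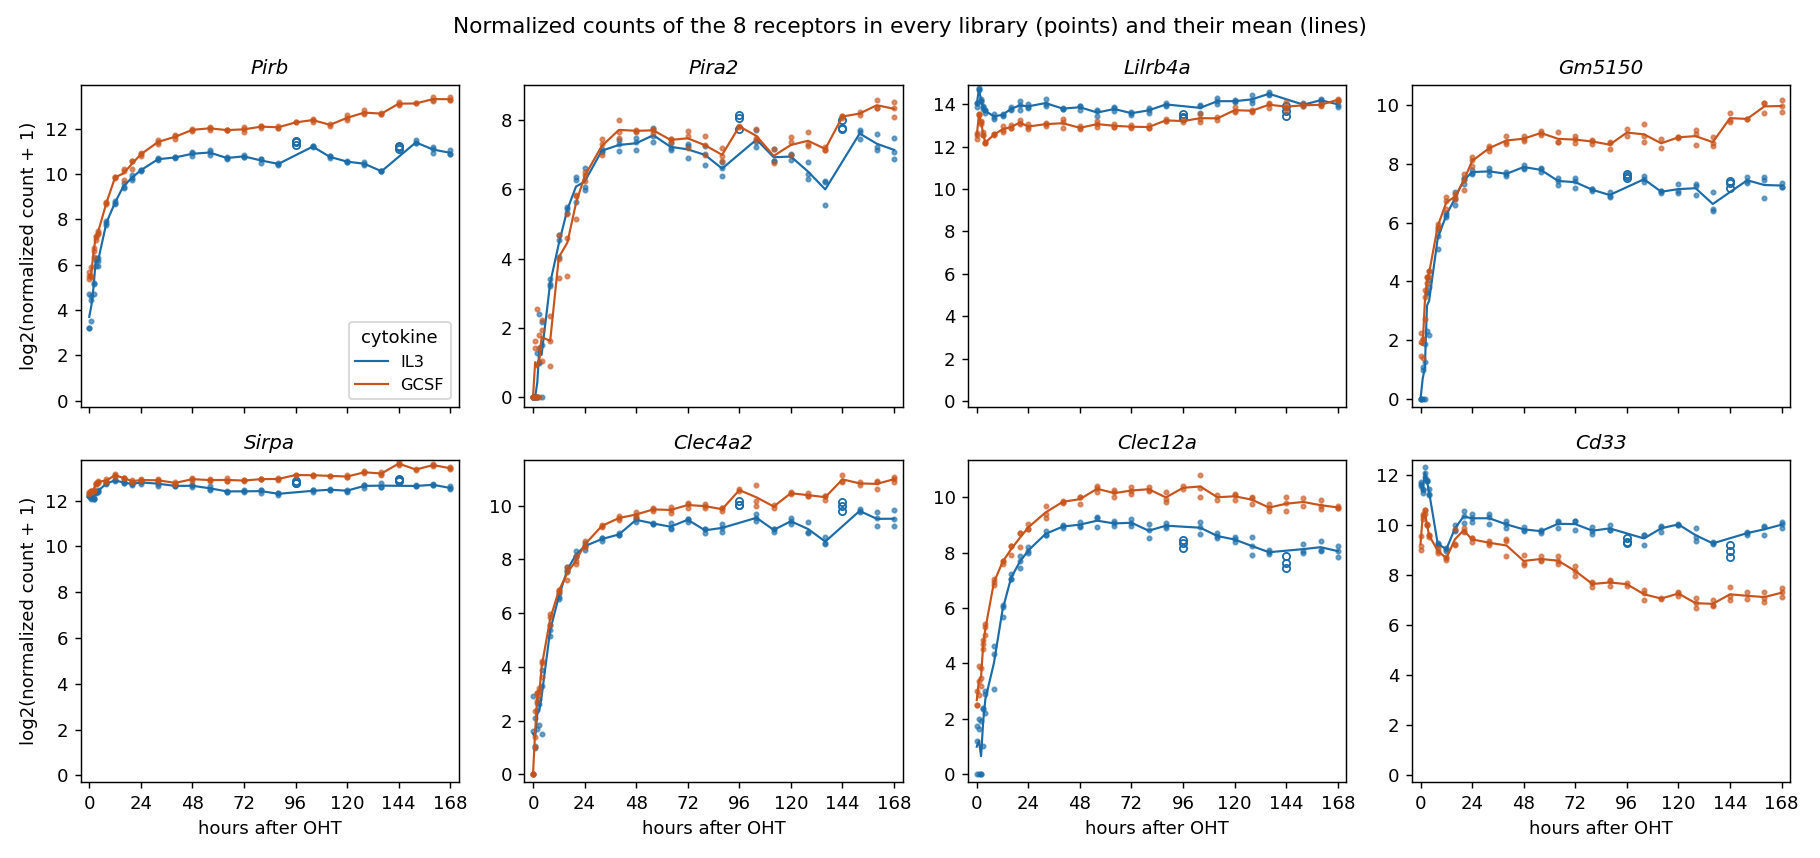
Normalized counts of the 8 receptors on a log2 scale with 1 added (y axis) against hours after OHT (x axis), with points for libraries, lines for the mean of a time point, IL3 in blue and GCSF in orange. At 0 the IL3 course shows undifferentiated cells and the GCSF course GCSF 0h, and open circles are IL3-OHT 96h and 144h. *Pirb*, *Pira2*, *Gm5150*, *Clec4a2* and *Clec12a* rise from low levels within 20h, and *Sirpa* and *Lilrb4a* stay high. *Cd33* ends lower than it starts, further in GCSF, with a rise from 12h to 20h on the way.

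To see when the receptors changed, time points were compared in 3 windows, 1h to 8h, 12h to 72h and 80h to 160h, without the libraries of the endpoint ranking. The members were chosen for a rise along these same courses, so the calls are no independent support for it and give its timing. From 1h to 8h to 12h to 72h, *Pirb* rose by 4.43 log2 units in IL3-OHT and 4.11 in GCSF-OHT, *Pira2* by 5.30 and 5.31, *Gm5150* by 4.67 and 4.33, *Clec4a2* by 5.76 and 5.43 and *Clec12a* by 6.17 and 4.57. *Cd33* fell by 1.21 in IL3-OHT and by 0.92 in GCSF-OHT. These 5 members were called higher and 1 lower in each cytokine (limma with Benjamini-Hochberg adjustment over all genes tested, adjusted p below 0.05 and absolute log2 fold change above 0.58). Of all genes, 30.1% were called in IL3-OHT (12.7% higher and 17.4% lower) and 13.5% in GCSF-OHT (7.64% higher and 5.82% lower). Log2 fold changes are on log2(normalized count + 1) and so understate the change of *Pira2*, *Gm5150*, *Clec4a2* and *Clec12a*, which were near the floor in the first window.

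After 72h the calls differed between the cytokines, and the difference between these changes was not tested. From 12h to 72h to 80h to 160h, 6 members rose and 1 fell in GCSF-OHT, where 12.1% of all genes were called (3.68% higher and 8.38% lower). *Pirb* libraries went from 848.1 to 4304 (median 2925) to values from 4158 to 11022 (median 5695), a log2 fold change of 1.36 (SE 0.045, limma adjusted p = 3.04e-54). *Clec4a2* rose by 1.51, *Pira2* by 0.99, *Gm5150* by 0.87 and *Clec12a* by 0.68, while *Cd33* fell by 1.72. *Lilrb4a* rose by 0.58 (limma adjusted p = 6.32e-39), a value close to the threshold. Its call was lost with upper-quartile scaling (0.51), without replicate 3 (0.54) and without 120h (0.57). It was also lost with replicate number as a block (0.578) and with DESeq2 (0.579). In IL3-OHT, where 20.9% of all genes were called (9.17% higher and 11.7% lower), the call was for *Clec4a2* alone, with 0.66 (SE 0.088, limma adjusted p = 3.31e-11), and its libraries there overlapped between the windows. With upper-quartile scaling this call was lost (0.58, just under the threshold), and the split of all genes called moved from 1597 higher and 2045 lower to 1241 and 2482.

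Set against 1h to 8h, the last window gave 5 members higher and 1 lower in IL3-OHT, beside 39.3% of all genes called (16.3% higher and 23% lower), and 6 higher and 1 lower in GCSF-OHT, beside 25.6% (11.6% higher and 14% lower). The median over the 8 members was 4.64 in IL3-OHT and 5.23 in GCSF-OHT, and that over all genes was -0.07 and -0.04. *Sirpa* changed by 0.17 and 0.54, below the size threshold in both. *Lilrb4a* rose by 0.77 in GCSF-OHT and had 0.10 in IL3-OHT.

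Step by step, called changes were most frequent within the first 20h. Of 392 steps between consecutive time points (49 per member), 52 were called, 49 up and 3 down, and 45 of the 52 lay at or before 20h. This was 37.5% of the 120 member steps up to 20h and 2.57% of the 272 after, beside 4.46% and 1.90% of all genes called at the same steps. The levels went on rising after that. The first time point with at least 50% of the highest mean was 104h for *Pirb*, 72h for *Clec4a2*, 56h for *Gm5150*, 40h for *Pira2* and 32h for *Clec12a* in GCSF-OHT. In IL3-OHT it was 40h for *Clec4a2*, 32h for *Pirb*, *Pira2* and *Clec12a*, and 20h for *Gm5150*. At 1 of them, *Pira2* in GCSF-OHT 1h against GCSF 0h, no library had more than 3 reads, so that step has no usable fold. *Pirb* in IL3-OHT had 20.9, 10.6 and 23.4 at 1h and 25.2, 35.2 and 34.8 at 2h. It then reached 76.5, 70.4 and 60.9 at 4h and 245.7, 215.2 and 231.3 at 8h. Every one of these time points lay above the one before it in all libraries. The 3h libraries, at 60.5, 72.2 and 77.2, overlapped those of 4h. In GCSF-OHT it started from 44.3, 58.3 and 43.5 at 1h, was at 178.5, 163.2 and 166.5 by 4h and held 418.6, 439.9 and 414.2 by 8h, again without overlap.

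Between 4h and 8h in IL3-OHT, 5 members rose and 1 fell, beside 10.5% of all genes called. *Gm5150* went from 3.48, 13.0 and 15.5 to 53.4, 33.2 and 45.7 (log2 fold change 2.13), *Clec4a2* from 13.9, 8.67 and 1.82 to 40.5, 34.3 and 46.6 (2.47) and *Pira2* from 3.48, 0 and 1.82 to 8.28, 9.64 and 8.57 (2.08), all without overlap. *Cd33* fell by 2.06 over the same 4 hours, from 2348, 2794 and 2448 to 587.1, 605.0 and 625.5. The corresponding step in GCSF-OHT had 4 members up and 1 down, beside 5.29% of all genes, and *Cd33* there fell by 0.61, from 771.1, 776.5 and 737.1 to 531.9, 499.9 and 470.1. The difference between these steps was not tested. Between 8h and 12h, 5 members rose in IL3-OHT (6.31% of all genes called) and 4 in GCSF-OHT (2.67%).

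*Pira2* was still at the floor in GCSF-OHT at 8h, where its libraries held 4.08, 2.07 and 0.874. Its first usable called step in GCSF-OHT was from 8h to 12h, with a log2 fold change of 2.41 (SE 0.36, limma adjusted p = 5.28e-08). In IL3-OHT it was from 2h to 3h on at most 5 reads a library (1.05, limma adjusted p = 0.0143), and from 4h to 8h at higher counts.

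*Lilrb4a* and *Cd33* moved within the first hours and not in 1 direction. *Lilrb4a* had 1 called step in all, from GCSF 0h to GCSF-OHT 1h, where 6364, 6041 and 5268 became 11728, 11374 and 11976 (log2 fold change 0.99, SE 0.088, limma adjusted p = 2.68e-18; 6.05% of all genes were called). By 4h it was back at 4771, 4583 and 4636, below the start in every library. In IL3-OHT the values were also highest at the first time point, with 27132, 26228 and 28109 at 1h, and had come down to 12158, 13765 and 13632 by 4h. *Cd33* in IL3-OHT rose from 2759.8, 2691 and 2456 at 1h to 4285, 3839.9 and 5140.2 at 2h (log2 fold change 0.74, limma adjusted p = 5.54e-07; 15.2% of all genes called) before its fall by 8h. In GCSF-OHT *Cd33* rose from GCSF 0h to 1h, from 751.3, 575.5 and 511.7 to 1308, 1209 and 1383 (1.10). After its fall *Cd33* rose again from 12h to 16h, by 0.83 in IL3-OHT (limma adjusted p = 2.48e-07) and 0.76 in GCSF-OHT (limma adjusted p = 1.69e-05). No step of *Sirpa* was called, which moved by small steps from 5387, 5005 and 5099.7 at GCSF 0h to 11786, 12258 and 11956 at GCSF-OHT 160h.

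**Figure D2:**
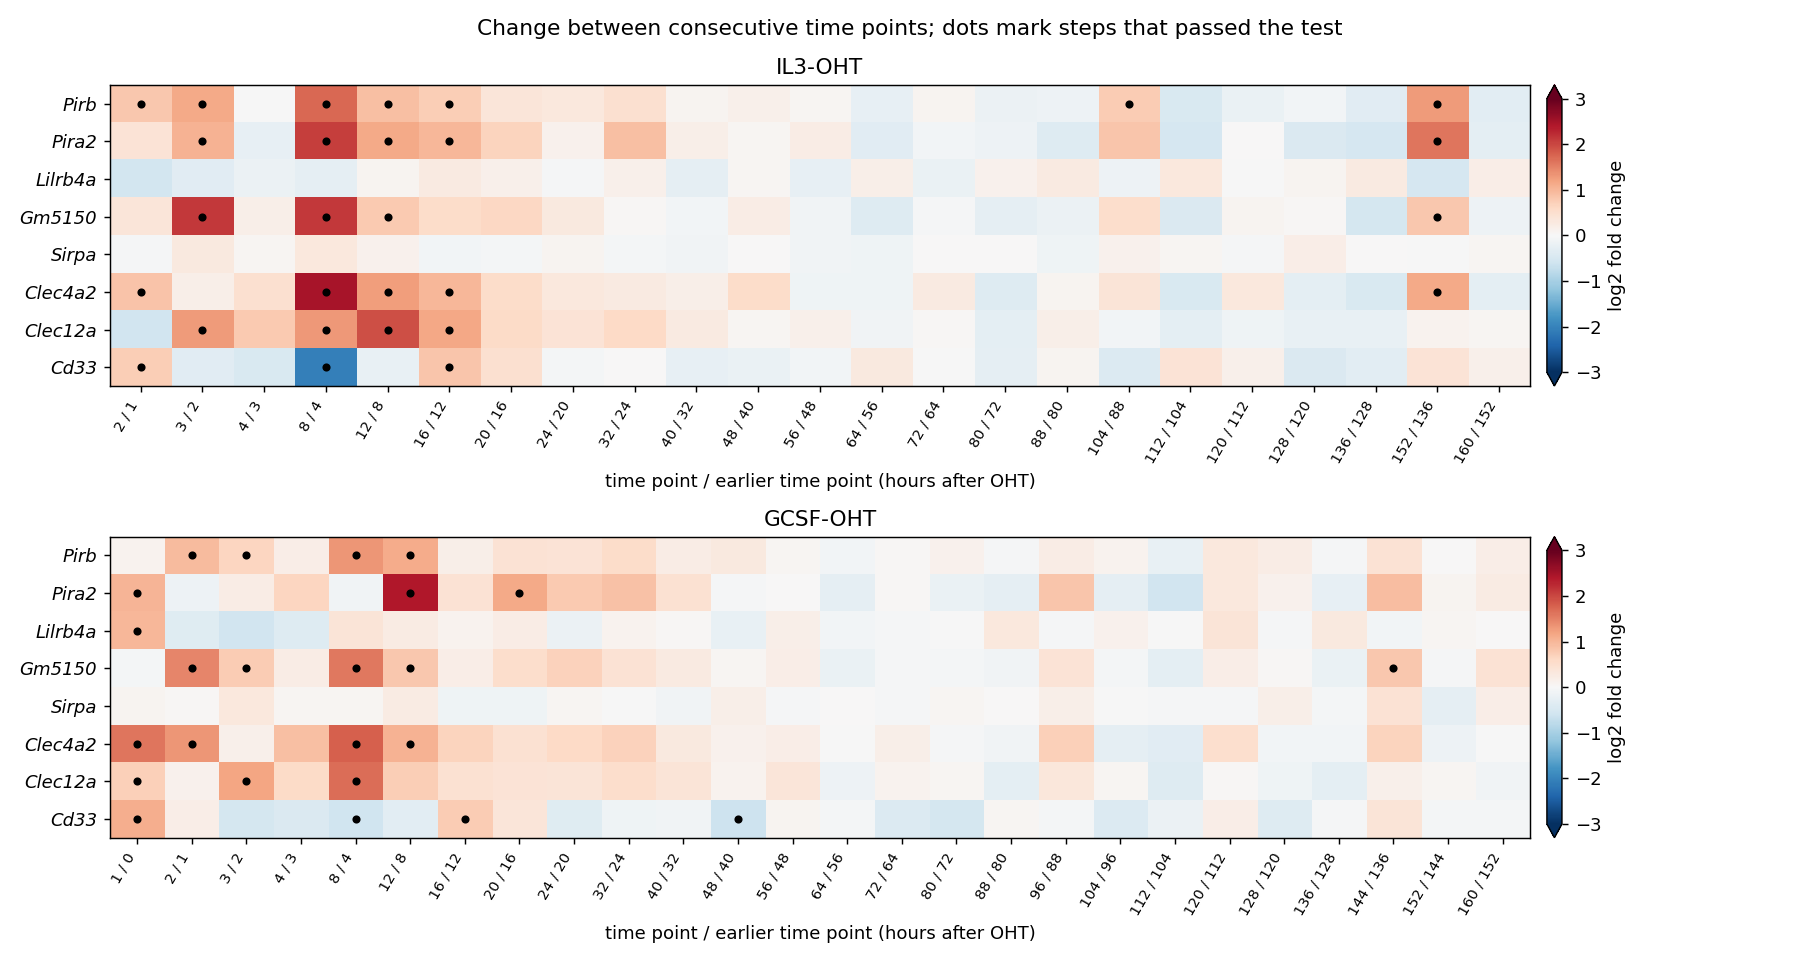
Log2 fold change between consecutive time points (colour) for the 8 receptors (rows) and each step (columns, hours after OHT), IL3-OHT in 1 panel and GCSF-OHT in the other, with a dot where the step was called. Called steps gather at the left, with 45 of 52 at or before 20h (37.5% of member steps there, beside 4.46% over all genes, and 2.57% beside 1.90% after), and the late column with 4 dots in IL3-OHT is 136h to 152h.

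The second question of the design is how GCSF-OHT differs from IL3-OHT at matched times. Over the 24 time points from 1h to 160h that both cytokines share, 4 members were higher and 2 lower in GCSF-OHT, beside 24.2% of all genes called (9.25% higher and 14.9% lower). *Pirb* was higher in GCSF-OHT by 1.32 log2 units (SE 0.029, limma adjusted p = 1.79e-73), *Clec12a* by 1.55 (SE 0.057), *Gm5150* by 1.27 (SE 0.050) and *Clec4a2* by 0.65 (SE 0.056). *Cd33* was lower, at -1.61 (SE 0.027, limma adjusted p = 1.46e-86) and so was *Lilrb4a*, at -0.76 (SE 0.018). All GCSF-OHT libraries lay above all IL3-OHT libraries of the time point at 24 of 24 time points for *Pirb* and *Clec12a*, at 23 for *Sirpa*, 22 for *Gm5150* and 18 for *Clec4a2*. They lay below at 23 of 24 for *Lilrb4a* and *Cd33*. *Sirpa*, with 0.41 (SE 0.0087), passed the p threshold (limma adjusted p = 5.5e-75) and not that of size.

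*Pira2* showed no such clear order. Its libraries overlapped between the cytokines at 14 of 24 time points, lay above in GCSF-OHT at 8 and below at 2. The log2 fold change was 0.20 (SE 0.073, limma adjusted p = 0.0113), against 1.32 for *Pirb*. The difference between these genes was not tested. With 96.7% of its 31-base stretches in other genes, *Pira2* can carry reads of its neighbours or lose reads to them.

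The size of the cytokine difference changed along the course. From 1h to 8h, 4 members were higher and 2 lower in GCSF-OHT (32% of all genes called, 11.4% higher and 20.7% lower). In 12h to 72h, 3 were higher and 2 lower (17.5%, with 7.35% higher and 10.2% lower), and in 80h to 160h, 5 were higher and 1 lower (33%, with 14.1% higher and 19% lower). *Pirb* differed by 1.24, 0.92 and 1.82 in the 3 windows, *Gm5150* by 1.13, 0.79 and 1.88, and *Clec4a2* by 0.62 (0.40 with a pseudocount of 5, 0.50 without replicate 2 and 0.54 without replicate 3, each of which ends that call), 0.29 and 1.06, of which the middle value was not called. All 3 were thus closest between the cytokines in the middle window and furthest apart in the last. *Sirpa* was called in the last window alone, with 0.64 (SE 0.015, limma adjusted p = 7.63e-72), when its libraries ran from 7738 to 12258 (median 8837) in GCSF-OHT and from 4798 to 6878 (median 5713) in IL3-OHT.

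*Clec12a* differed most at the start. From 1h to 8h its 15 GCSF-OHT libraries ran from 6.24 to 131.1 (median 24.8) and its 15 IL3-OHT libraries from 0 to 23.8 (median 3.64), a log2 fold change of 2.65 (SE 0.12, limma adjusted p = 1.53e-40), against 1.05 and 1.498 in the later windows. The GCSF-OHT libraries were above the floor already at 1h, with 9.28, 6.24 and 13.97, when IL3-OHT had 0, 2.12 and 2.93. Before OHT, at GCSF 0h, *Clec12a* had 4.62, 7.08 and 4.66, on 5, 8 and 5 reads, so it was over 3 reads there too.

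*Cd33* went apart late. From 80h to 160h its 25 GCSF-OHT libraries ran from 100.6 to 219.6 (median 142.1) and its 27 IL3-OHT libraries from 583.9 to 1059 (median 852.3), so that the highest GCSF-OHT library lay below the lowest IL3-OHT library. The log2 fold change was -2.50 (SE 0.044, limma adjusted p = 3.94e-83), against -1.27 in 1h to 8h and -0.98 in 12h to 72h. *Lilrb4a* came together instead, with -1.17, -0.79 and -0.51, the last below the size threshold. Its GCSF-OHT libraries ran from 4583 to 11976 (median 6176) in the first window and from 7452 to 17099 (median 12731) in the last, and its IL3-OHT libraries from 10204 to 28109 (median 14752) and from 12365 to 24129 (median 17270.1).

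**Figure D3:**
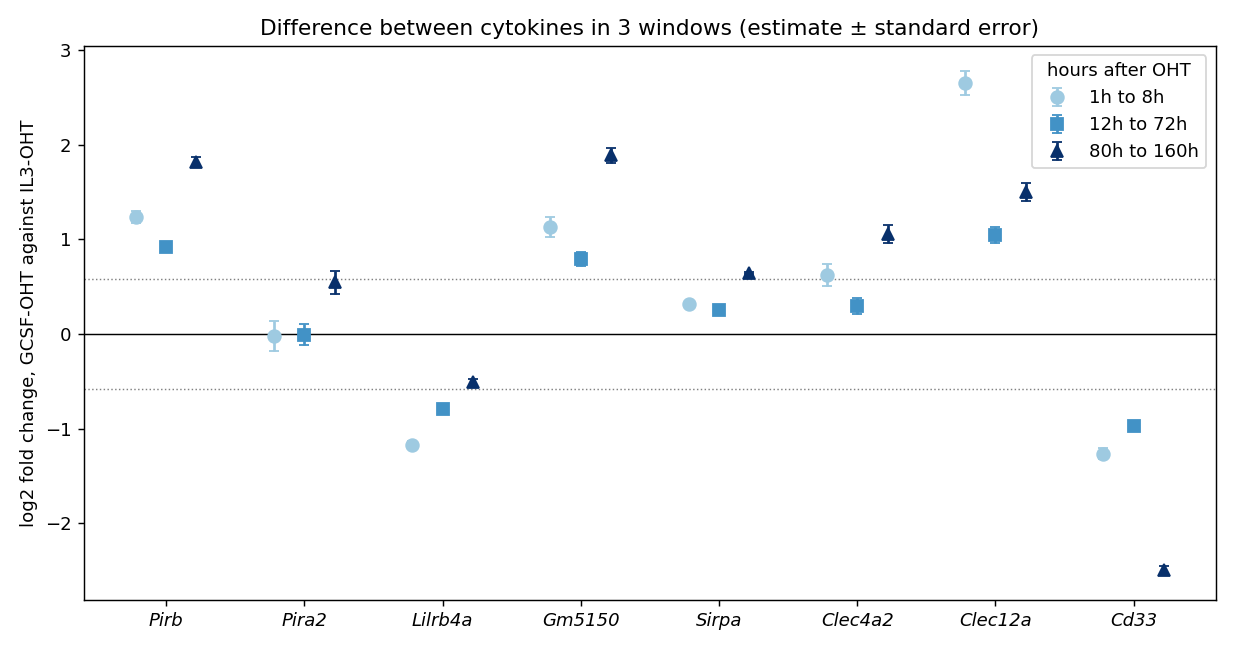
Difference between GCSF-OHT and IL3-OHT as log2 fold change (y axis) for each receptor (x axis) in 3 windows of time, as estimate and standard error, with dotted lines at 0.58 and -0.58. *Pirb* and *Gm5150* are furthest apart at 80h to 160h (1.82 and 1.88), *Clec12a* at 1h to 8h (2.65) and *Cd33* at 80h to 160h (-2.50).

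Whether the rise itself differed between the cytokines was tested as an interaction, the change from 1h to 8h to 80h to 160h in GCSF-OHT minus that in IL3-OHT. By it 3 members had the larger change in GCSF-OHT and 2 the smaller, beside 29.9% of all genes called (16.9% with a larger change and 13% with a smaller). *Gm5150* gave 0.75 (SE 0.14, limma adjusted p = 4.47e-07), *Lilrb4a* 0.67 (SE 0.049) and *Pirb* 0.58 (SE 0.079), the last at the size threshold. *Cd33* gave -1.23 (SE 0.072), that is a deeper fall in GCSF-OHT, and *Clec12a* -1.15 (SE 0.16), that is a smaller rise from a higher start. These calls depend on how values near the floor are treated. With edgeR the *Gm5150* value was 0.60 (adjusted p = 0.218), and with a pseudocount of 5 the *Clec12a* value was -0.32 and not called. *Pirb* fell under the size threshold without replicate 1 (0.56), without replicate 3 (0.47), with IL3-OHT 96h and 144h kept (0.51), without 120h (0.57), with a pseudocount of 0.5 (0.57) and with edgeR (0.575). *Pira2*, at 0.57, and *Clec4a2* were called instead with a pseudocount of 5 (0.61 and 0.65) and without replicate 2 (0.61 and 0.58), and *Pira2* also without replicate 3 (0.62) and without 120h (0.59).

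Within the last window the courses did not stand still. In GCSF-OHT, 136h to 160h against 80h to 104h gave *Pirb* 0.84 (SE 0.075, limma adjusted p = 5.34e-19) and *Lilrb4a* 0.77 (SE 0.047, limma adjusted p = 5.63e-30) higher, beside 7.1% of all genes called (3.11% higher and 4% lower). *Pirb* went from 5428, 5091 and 5584 at 104h to 6421, 6697 and 6468 at 136h and 9596, 11022 and 9998 at 160h, each above the last in every library. The rise was not steady, as 112h (4777 and 4494) lay below 104h, and 128h (6615, 6424 and 7206) overlapped 136h. In IL3-OHT the one call, beside 7.49% of all genes (2.36% higher and 5.13% lower), was *Clec12a*, which fell by 0.78 (SE 0.16, limma adjusted p = 1.79e-05), with 481.8, 408.7 and 547.7 at 104h and 273.8, 264.3 and 343.2 at 160h. Without replicate 1 or without replicate 3, *Gm5150* and *Clec4a2* were called higher in GCSF-OHT as well (0.64 and 0.60 without replicate 1), and without replicate 2 *Clec12a* was called lower (-0.67). *Clec12a* had its highest time point mean at 104h in GCSF-OHT, 1375 ± 391.7 (SD, n = 3), and that value rests on replicates as far apart as 1297, 1028 and 1800.1.

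Of the time points just after an OHT renewal, 96h and 144h stood apart in IL3-OHT and 48h had 0 members called by limma (1, *Lilrb4a*, at an unadjusted p under 0.05) and 0 by edgeR and DESeq2. Renewal was at 40h, 88h and 136h, and 8 h later came 48h, 96h and 144h, the last 2 of which the authors left out in IL3-OHT. Set against its neighbours at 88h and 104h, IL3-OHT 96h had 2 members higher and 1 lower, beside 17.5% of all genes called (9.36% higher and 8.17% lower). *Pira2* went from 97.03, 82.2 and 110.3 at 88h up to 211.6, 267.4 and 283.6 at 96h, and back down to 164.6, 148.6 and 207.9 at 104h (log2 fold change 0.97, SE 0.30, limma adjusted p = 0.00493). Its lowest library at 96h lay above the highest of both neighbours. *Clec4a2* stood at 524.7, 570.7 and 643.8 before, at 1050.0, 1048 and 1156 in the 96h libraries and at 693.7, 739.7 and 823.7 after (0.72, limma adjusted p = 0.0062), also without overlap. *Clec12a* was the member that was lower, with 470.8, 500.9 and 533.5 before, 328.0, 351.7 and 285.8 at 96h and 481.8, 408.7 and 547.7 after (-0.61, limma adjusted p = 0.0276). Leaving out replicate 2 ended all 3 calls by limma (0.82 for *Pira2*, 0.73 for *Clec4a2* and -0.73 for *Clec12a*), and leaving out replicate 1 left 4. The call of *Clec12a* was also lost without replicate 3 (-0.45), with a pseudocount of 0.5 and with only the libraries compared (limma adjusted p = 0.203, 0.0864 and 0.067).

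At IL3-OHT 144h, against 136h and 152h, the same 2 members were higher, beside 15.4% of all genes called (8.59% higher and 6.76% lower), or 1498 and 1179 genes, which upper-quartile scaling moved to 1788 and 903. *Pira2* had 72.8, 46.1 and 73.7 at 136h itself, 254.4, 217.8 and 213.4 in the 144h libraries, and 201.3, 210.4 and 172.9 by 152h (1.04, SE 0.30, limma adjusted p = 0.00263). *Clec4a2* went from 386.8, 456.0 and 378.0 to 1133, 1009 and 885.4, and was at 935.3, 868.0 and 886.0 by 152h (0.74, limma adjusted p = 0.00522). Without replicate 2 the call of *Clec4a2* was lost (0.76), and without replicate 1 *Lilrb4a* and *Cd33* were called lower as well (-0.68 and -0.63). The 144h libraries of *Clec4a2* overlapped those of 152h and those of *Pira2* did not. *Lilrb4a* was lower by less than the size threshold at both times, with -0.49 at 96h and -0.55 at 144h. In IL3-OHT 144h it had 15574, 12955 and 11279.9, between 2 time points with 21891, 24129 and 23236 and 16884, 15230.1 and 16349.7.

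A rise also showed without the excluded libraries, from 136h straight to 152h in IL3-OHT, where 16% of all genes were called. *Pira2* rose by 1.61, *Pirb* by 1.27, *Clec4a2* by 1.14 and *Gm5150* by 0.81 (limma adjusted p = 0.00333 for the last). *Pirb* went from 1116, 1120.1 and 1119 to 2623, 2886 and 2617, with no overlap. From 88h to 104h, where 2.89% of all genes were called, *Pirb* rose by 0.76.

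In GCSF-OHT the background after a renewal was lower, with 0.35% of all genes called at 48h, 4.65% at 96h and 1.85% at 144h. Set against the neighbours on both sides, the largest member value there was 0.55 for *Pira2* at 96h. It had an SE of 0.35 and did not pass (limma adjusted p = 0.31). The *Pira2* libraries of GCSF-OHT 96h, 221.3 and 226.6, lay above all of those at 88h and 104h. As a step from 136h to 144h in GCSF-OHT, *Gm5150* was called higher (0.82, limma adjusted p = 0.00902). *Pira2* went from 140.8, 147.2 and 138.9 to 278.0, 274.0 and 267.7 there. *Clec4a2* went from 1325, 1313 and 1201 to 1885, 2286 and 1925. Neither overlapped and neither was called, and both stayed near these levels at 152h (283.0 and 297.3, 1748 and 1908). *Sirpa* at GCSF-OHT 144h passed the p threshold with 0.35 (limma adjusted p = 1.44e-12) and not that of size. Its libraries at 13343, 12058 and 12303 lay above all of those at 136h, 9151, 9784 and 8986. At IL3-OHT 48h 1.6% of all genes were called, and the largest member value was 0.34 for *Clec4a2* (limma adjusted p = 0.361). Since medium, OHT and plate changed together, these cannot be told apart, and the difference between the cytokines at these times was not tested.

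**Figure D4:**
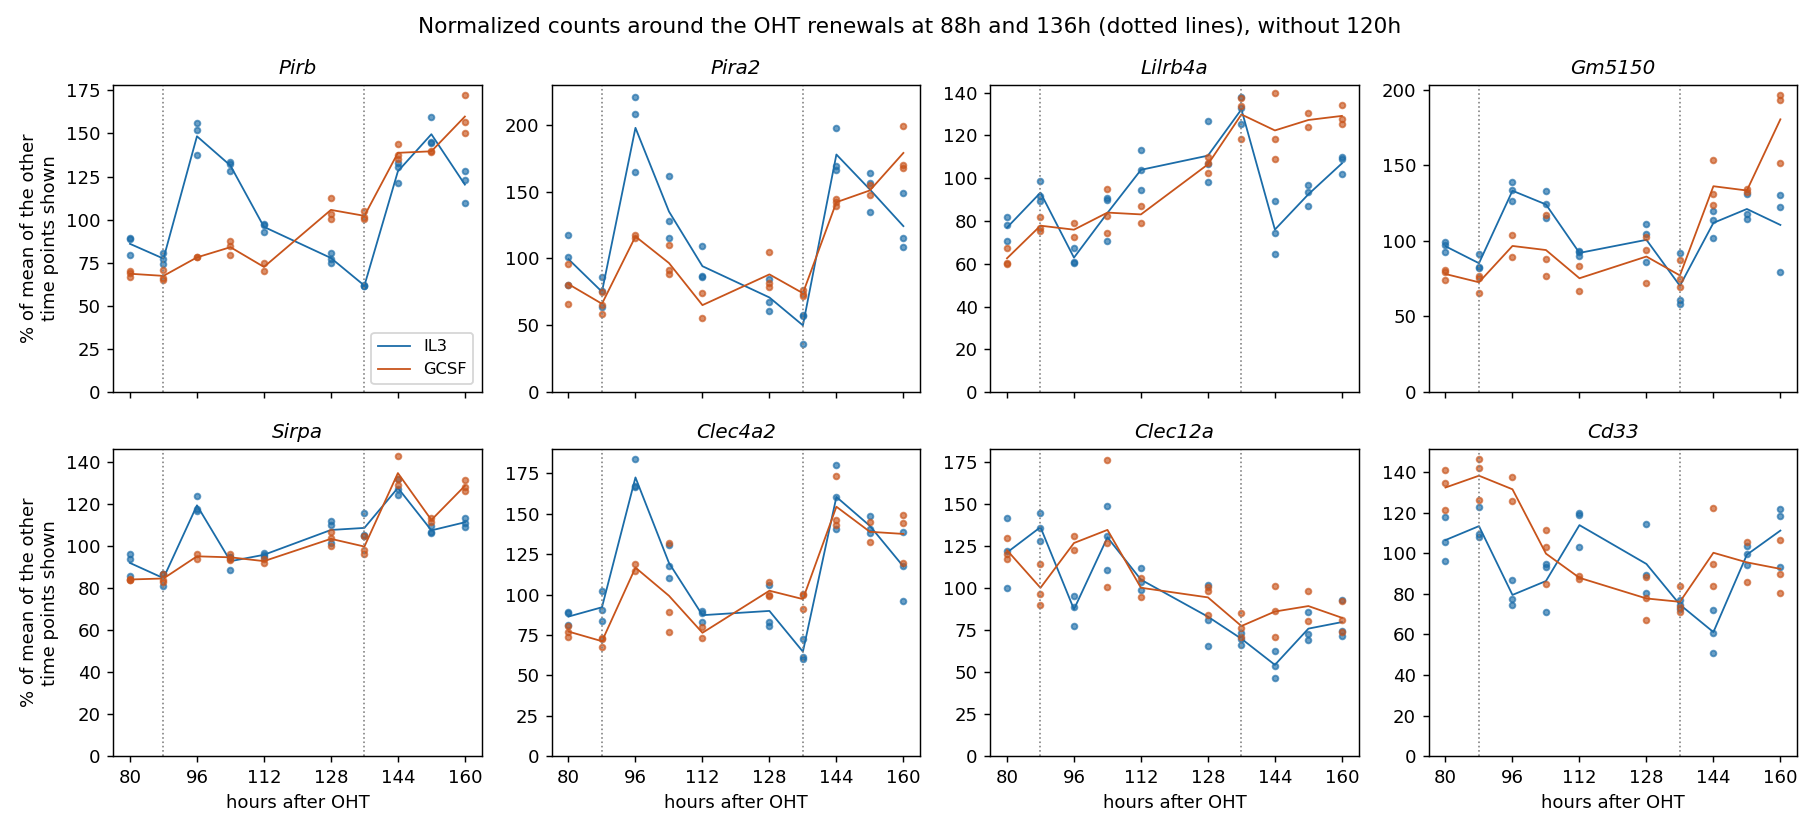
Normalized counts of the 8 receptors from 80h to 160h, each library (points) and the time point mean (lines) as a percentage of the mean of the other time points shown without 96h and 144h, against hours after OHT, with dotted lines at the renewals of 88h and 136h, IL3 in blue and GCSF in orange. In IL3 *Pira2* and *Clec4a2* peak at 96h and 144h and *Lilrb4a* dips. In GCSF *Pira2* and *Clec4a2* also rise from 136h to 144h. The 120h libraries are not shown.

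The receptors' signalling partners were read from lists of related genes. Among ITAM adaptors and kinases (12 of 13 tested), 8 rose and none was called lower from 1h to 8h to 80h to 160h in GCSF-OHT, and 6 rose and 1 fell in IL3-OHT, with medians of 0.92 and 0.56 beside -0.04 and -0.07 over all genes. The shares of all genes called higher and lower are those given above for the last window set against 1h to 8h. *Tyrobp*, the adaptor for many activating myeloid receptors, had 0, 2.05 and 1.18 in undifferentiated cells, 9.20, 7.50 and 10.5 at IL3-OHT 8h and 256.4, 232.4 and 245.0 at IL3-OHT 48h. It rose by 6.67 in IL3-OHT and 5.81 in GCSF-OHT. *Syk*, the kinase downstream of ITAMs, rose by 2.61 and 4.23. The kinase gene *Fgr* rose in GCSF-OHT by 1.45 and fell by 1.199 in IL3-OHT, where *Btk* rose by 3.00. In GCSF-OHT against IL3-OHT the differences were 1.55 for *Syk*, 0.92 for *Card9* and 0.89 for *Fgr*. *Fcer1g*, the partner of PIR-A receptors, was detected throughout, with 243.4, 215.8 and 199.7 in undifferentiated cells, and was lower in GCSF-OHT than in IL3-OHT, at -0.79 (limma adjusted p = 8.47e-61).

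The phosphatases that ITIMs recruit were present before OHT, and *Inpp5d* rose by 0.66 in IL3-OHT from the first to the last window. Of 4 genes (*Ptpn6*, *Ptpn11*, *Inpp5d* and *Csk*), 2 were higher in GCSF-OHT than in IL3-OHT, *Ptpn6* by 0.90 and *Inpp5d* by 0.65, with a median of 0.41 beside -0.06 over all genes. The share of all genes called higher is that given above for GCSF-OHT against IL3-OHT over the shared time points. *Ptpn6* had 598.0, 568.7 and 529.4 in undifferentiated cells and 1331, 1326 and 1319.7 at GCSF 0h. From 80h to 160h it ran from 2776 to 4454 (median 3544) in GCSF-OHT and from 741.3 to 2478 (median 1328) in IL3-OHT, with no overlap.

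**Figure D5:**
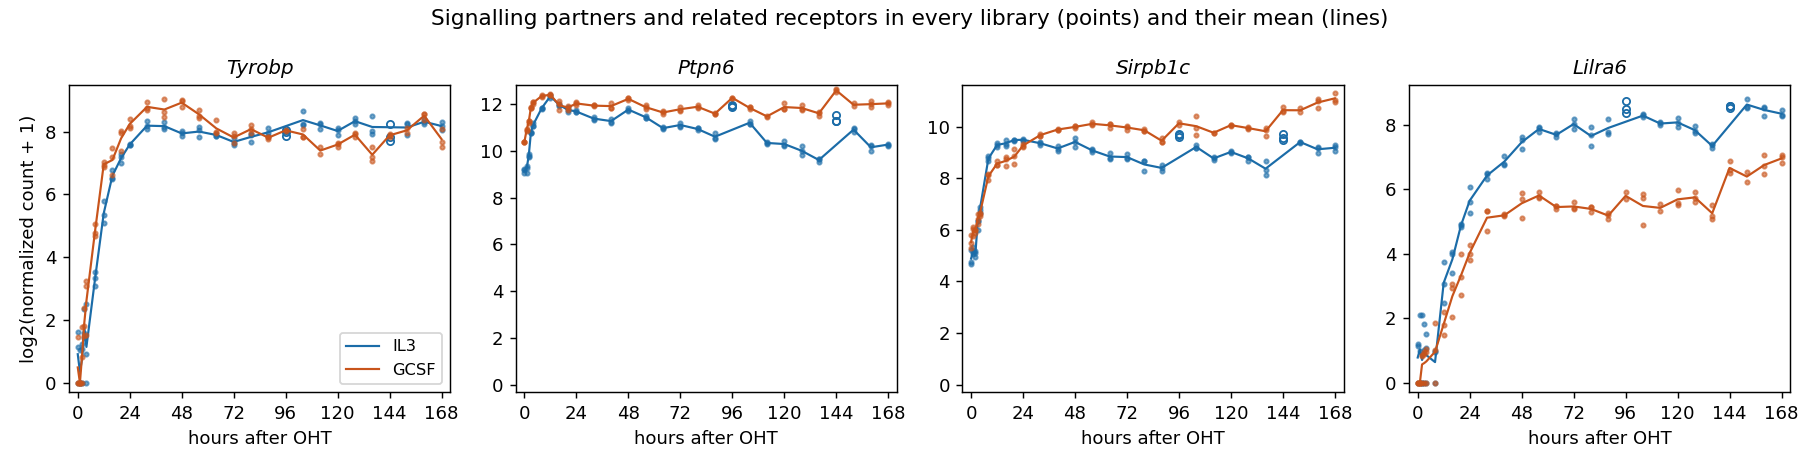
Normalized counts on a log2 scale with 1 added (y axis) against hours after OHT for *Tyrobp*, *Ptpn6*, *Sirpb1c* and *Lilra6*, drawn as for the receptors, IL3 in blue and GCSF in orange. *Tyrobp* leaves the floor in both cytokines, *Ptpn6* is higher in GCSF at late times, and *Lilra6* is higher in IL3.

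Relatives of the members moved in both directions. Of the other PIR, LILR and gp49 receptors, 2 of 11 were found under their symbols and 1 was tested. That gene, *Lilra6*, an activating receptor of the PIR cluster, rose by 7.19 in IL3-OHT and 5.24 in GCSF-OHT and was lower in GCSF-OHT, at -1.65 (limma adjusted p = 3.46e-44), where *Pirb* was higher. Its libraries at 160h were 312.3, 379.0 and 369.4 in IL3-OHT and 88.0, 133.9 and 103.7 in GCSF-OHT, without overlap, although it shares sequence with *Pirb*. *Lilr4b*, the gp49 partner of *Lilrb4a*, had 10814, 11766 and 10905 in undifferentiated cells and 3367, 3050.1 and 3017 at GCSF 0h, the same order as *Lilrb4a*. For the SIRP counts, the shares of all genes called are those given above for the same comparisons. Of the other SIRP receptors and CD47, 3 of 4 rose in each cytokine and 3 were higher in GCSF-OHT (median 0.60 beside -0.06 over all genes). These were *Sirpb1a*, *Sirpb1b* and *Sirpb1c*, activating SIRPs, which rose in GCSF-OHT by 4.08, 4.44 and 3.51 and in IL3-OHT by 2.24, 2.73 and 2.45, with cytokine differences of 0.95, 0.60 and 0.61, while *Cd47*, the ligand of *Sirpa*, was not called in any of the 3 comparisons.

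Of 14 other C-type lectin receptors, 11 rose and none was called lower in GCSF-OHT (median 1.22 beside -0.04 over all genes, of which 11.6% were called higher and 14% lower), and 6 rose and 2 fell in IL3-OHT (0.38 beside -0.07, with 16.3% and 23%). *Clec4a3*, *Clec4a1* and *Clec4a4*, relatives of *Clec4a2* in its cluster, rose by 5.33, 5.23 and 3.73 in GCSF-OHT, the first pair by 4.90 and 4.41 in IL3-OHT. *Clec4n* rose by 4.41 and 4.47, and *Clec4b2* by 3.64 in IL3-OHT. *Clec4d* and *Clec4n*, activating lectins that recognise fungal surfaces, were lower in GCSF-OHT than in IL3-OHT, at -1.47 and -0.71, and *Clec4b2* and *Clec4a4* were higher by 0.95 and 0.66. Of 5 other Siglecs tested, 2 rose in each cytokine (beside 16.3% of all genes in IL3-OHT and 11.6% in GCSF-OHT), *Siglece* by 2.397 in IL3-OHT and 3.77 in GCSF-OHT, opposite to *Cd33*, and *Cd22* by 1.35 and 0.93. The CD300, TREM, PILR, CD200R, LAIR and CEACAM receptors (24 genes) had 11 higher and 10 lower in IL3-OHT and 10 higher and 4 lower in GCSF-OHT, with medians of -0.35 and 0.40, beside 16.3% higher and 23% lower, and 11.6% higher and 14% lower, over all genes. *Cd300ld3* (listed by its older symbol) rose by 3.89 in IL3-OHT and 4.24 in GCSF-OHT, and *Cd300ld* by 1.92 and 4.07. *Cd300c2* and *Pilrb1* rose in GCSF-OHT by 2.98 and 2.61 and were higher there than in IL3-OHT by 1.25 and 1.09, as was *Treml4* by 1.40, while *Cd200r1*, an inhibitory receptor, was lower (-1.07). In IL3-OHT *Pilra*, an inhibitory receptor, rose by 2.03 and *Treml1* fell by 1.79.

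Across the 54 combinations of condition and time point without IL3-OHT 96h and 144h, the mean levels of the 5 rising members ran together. Among 12296 genes compared, the gene nearest to *Pirb* was *Gm5150* (Pearson's r = 0.986 of log2 means), and the gene nearest to *Pira2* was *Clec4a2* (0.981). Within IL3-OHT alone (n = 25 time points) *Pirb* and *Pira2* had r = 0.996, and within GCSF-OHT (n = 27) 0.970. *Clec12a* was nearest to *Sla* (0.973), *Lilrb4a* to *Lilr4b* (0.954), *Cd33* to *Nt5e* (0.943) and *Sirpa* to *Tmem104* (0.926). The next nearest were *Gm15922* (0.984) and *Nfam1* (0.982) for *Pirb*, *Gm14548* (0.981) and *Clec4a1* (0.969) for *Pira2*, *Sla* (0.981) and *Cd300ld3* (0.981) for *Gm5150*, *Clec4a1* (0.976) and *Gm15922* (0.975) for *Clec4a2*, and *Tlr8* (0.972) and *Pirb* (0.972) for *Clec12a*. For the others they were *Upp1* (0.903) and *Gpat3* (0.901) with *Lilrb4a*, *Stk38* (0.923) and *Birc3* (0.911) with *Sirpa*, and *Ctla2a* (0.939) and *Serpinf1* (0.938) with *Cd33*. With Spearman's rho or on normalized counts without a log, 8 of these 24 nearest genes were found again in each case. All time points share a common time trend and, for *Pirb*, *Pira2*, *Lilrb4a* and their near copies, reads that the quantification can split, so these values are given without a test.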

How the data were processed

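RNA-Seq values of 165 libraries in 56 groups were used. The authors quantified transcripts with Salmon on GRCm38 and deposited normalized signal, that is gene counts divided by a DESeq2 size factor, per the study's methods and the submitters' processing notes. How transcripts were summed to genes is not given in the sources used here. Dividing by the smallest nonzero value of a library gave whole reads (100% of values, relative to 1 read within 1e-06), also in 7 libraries whose size factor is near 1. Columns were matched to samples by library name, with 0 columns left over. GCSF 0h titles name OHT, but other labels place these libraries before it, and they were taken as without OHT.

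The members and the lists of related genes were chosen with earlier results of these data known. The main test was limma 3.58.1 in R 4.3.3 on log2(normalized count + 1), with 1 mean per condition and time point, trended empirical Bayes and Benjamini-Hochberg adjustment. It left out IL3-OHT 96h and 144h and covered the 17414 genes that reached 5 in some library. The comparisons around the renewals (17439 genes, all libraries) and within the last window were added after seeing the data. A gene was called at an adjusted p below 0.05 and an absolute log2 fold change above 0.58. The text names all members, of each list up to 4 called genes with the largest change, and the 3 nearest genes of each member by correlation, except 1 list gene that is not reported here. *Fcer1g*, *Lilr4b*, *Cd47* and the levels shown for list genes were chosen after their values were seen. Replicates are wells, so p-values measure the spread between wells of 1 line. No pair of replicates was as close as counting error alone (chi-square per gene 2.25 to 68.5, where counting error gives 1). Endpoint intervals are 95% exact binomial intervals on summed reads.

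Alternatives were pseudocounts of 0.5 and 5, no filter, a mean of at least 10, upper-quartile scaling, each replicate left out, the replicate number as a block, only the libraries compared, IL3-OHT 96h and 144h kept, and edgeR 4.0.16 and DESeq2 1.42.0 (without independent filtering) on the whole reads. Leaving out 120h was added after seeing the data. The fits were tested on simulated data. Promoters were searched with Python 3.11.15. Protein sequences were not used here.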

Additional observations from a re-analysis of the deposited data

Results flagged for a closer look

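For 5 receptors the change from 1h to 8h to 80h to 160h differed between the cytokines by the test of the difference itself. The calls of *Gm5150*, *Pirb* and *Clec12a* were lost under some of the other settings, as given above. Relative to IL3-OHT, the change in GCSF-OHT was larger for *Gm5150* by 0.75 log2 units, for *Lilrb4a* by 0.67 and for *Pirb* by 0.58. It was more negative for *Cd33* (-1.23), whose GCSF-OHT libraries ended from 100.6 to 219.6 (median 142.1) and whose IL3-OHT libraries ended from 583.9 to 1059 (median 852.3). It was smaller for *Clec12a* (-1.15), which in 1h to 8h ran from 6.24 to 131.1 (median 24.8) in GCSF-OHT and from 0 to 23.8 (median 3.64) in IL3-OHT, where the IL3-OHT median is near the floor.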

How the results depend on the processing

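Of 1968 values of members recomputed under another setting, 1909 kept their direction and their side of the thresholds, 26 lost a call, 16 gained one and 17 changed sign; the cause was not tested. The 1 member called in IL3-OHT 80h to 160h against 12h to 72h fell to 0 with upper-quartile scaling. The 5 members called for the difference in change between cytokines fell to 3 with a pseudocount of 0.5 and to 3 with edgeR, where *Gm5150* had 0.60 (adjusted p = 0.218 with edgeR, 0.117 with DESeq2). Of the 24 nearest genes, 8 were found again by Spearman's rho and 8 on normalized counts without a log. *Clec12a* lost its call there with a pseudocount of 5 (-0.32).

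Leaving out each replicate in turn gave 3 to 4 members called in GCSF-OHT 136h to 160h against 80h to 104h, 0 to 4 at IL3-OHT 96h, 1 to 4 at IL3-OHT 144h and 0 to 1 at GCSF-OHT 96h. Nearly all sign changes were of values near 0, the exception being *Pira2* for the difference in change. *Pira2* in GCSF-OHT against IL3-OHT had -0.02 in 1h to 8h and gave 0.054 with a pseudocount of 0.5, 0.69 with edgeR, 0.52 with DESeq2 and -0.14 to 0.12 leaving out replicates. In 12h to 72h it had -0.01 and gave 0.013 with a pseudocount of 5, 0.010 with edgeR, 0.0087 with DESeq2 and -0.058 to 0.092 leaving out replicates. Its difference in change between cytokines was 0.57, and -0.12 with edgeR. The other sign changes came from leaving out replicates: *Pira2* in IL3-OHT 136h to 160h against 80h to 104h (-0.12 to 0.070), *Clec12a* at IL3-OHT 48h (-0.16 to 0.044), *Pira2* at GCSF-OHT 48h (-0.071 to 0.044), *Clec4a2* at GCSF-OHT 48h (-0.051 to 0.00015), *Clec12a* at GCSF-OHT 96h (-0.034 to 0.24), *Lilrb4a* at GCSF-OHT 144h (-0.15 to 0.0054) and *Clec12a* at GCSF-OHT 144h (-0.021 to 0.14).

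Replicate numbers do not pair the samples: of 78 pairs of same-numbered GCSF-OHT and IL3-OHT libraries of a time point, 1 had a correlation of deviations over 0.1 (-0.158 to 0.132). With the replicate number as a block, *Lilrb4a* in GCSF-OHT 80h to 160h against 12h to 72h had 0.578 and lost its call, and no other call of a member changed. Members at or near the floor of 3 reads in the first hours, *Pira2*, *Gm5150*, *Clec4a2* and *Clec12a*, have folds that depend on the pseudocount.

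Counts over all genes moved by over 1.5 times in these cases. Requiring a mean of at least 10 gave 3633 genes in place of 5581 for the cytokines in 1h to 8h, 3390 in place of 5237 for IL3-OHT 12h to 72h against 1h to 8h, and 1278 in place of 2100 for GCSF-OHT 80h to 160h against 12h to 72h. A pseudocount of 5 gave 1170 for the last of these, 1517 in place of 2345 for GCSF-OHT 12h to 72h against 1h to 8h, and 858 in place of 1304 (IL3-OHT) and 772 in place of 1237 (GCSF-OHT) within the last window. At IL3-OHT 48h, 279 became 32 higher and 79 lower without replicate 2. At GCSF-OHT 48h, 61 became 23 without replicate 1, 39 without replicate 3 and 93 with edgeR, at 96h 811 became 424 without replicate 2, and at 144h 322 became 88 higher and 84 lower without replicate 1.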
